A study of Mus musculus with 4 samples.

Results

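The genes described here encode the machinery that licenses replication origins and runs the replication fork. The 43 genes were chosen by symbol, as a list of named subunits of these complexes, with earlier results of these data known, and the rule itself used no measured value. All 43 were found among the 28250 genes of the deposited expression tables, and all 43 passed the filter on low values that left 20336 genes for testing. They were grouped by role as the origin recognition complex (6 genes), the helicase loaders and their inhibitor (3), the Mcm2-7 helicase (6), helicase activation and GINS (7), the sliding clamp and its loader (6), replication protein A (3), polymerase alpha and primase (4), polymerases delta and epsilon (4), the flap endonuclease and ligase (2) and ribonucleotide reductase (2).

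The cells were TBV2 cells, a mouse embryonic stem cell (ESC) line kept in LIF. They were treated for 24 h with solvent, or with 5 µM MS-275, a benzamide inhibitor of the class I histone deacetylases (HDACs). RNA from 2 solvent and 2 MS-275 libraries was selected for poly(A) and sequenced without keeping the strand. The labels name no transgene or mutation in either group and do not say what the solvent was, and they mention both a feeder layer and gelatin for the culture of the line. Nothing in the labels says that the replicates were separate cultures, so the p-values below measure only the spread between these libraries.

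Before S phase the origin recognition complex, Cdc6 and Cdt1 load the ring of Mcm2 to Mcm7 onto DNA, and geminin (Gmnn) blocks Cdt1 once an origin has fired. The kinase Cdc7 with its partner Dbf4, and the factors Mcm10, Cdc45 and GINS, turn the loaded ring into a moving helicase, behind which polymerase alpha and primase lay primers, the Rfc complex loads the clamp Pcna, and polymerases delta and epsilon copy the strands. ESCs have a short G1 phase and spend much of their cycle in S phase, and genes of this machinery are textbook targets of the E2F transcription factors.

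The deposited alignments numbered 9785619 to 23467935 per library, all 35 bases long, and between 18194 and 20814 genes reached a normalized expression value of 0.001. Summed values of the 43 genes were 17.9 and 25.3 in the solvent libraries and 16.2 and 21.9 in the MS-275 libraries, so that replicate 2 was higher than replicate 1 in each group. The tables of the authors mark the values of replicate 1 of both groups as OLD, while the alignments named OLD were deposited with replicate 2. Libraries of the same number deviated together from their group means, with a correlation of 0.764 across 20336 genes and 0.693 across the 43. The replicate number was therefore also used as a block in a second fit, called the paired fit below, and both fits are given wherever they differ.

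Across the solvent libraries the replication genes were expressed well above most of the transcriptome. Levels were set side by side as if the value were per exon length. The value correlated with alignments per exon base across 13013 genes (r = 0.837 to 0.948 between libraries and alignment files of the same group). Such a correlation cannot tell whether the value was divided by exon length, and that was not tested. Across the 43 genes alone that correlation was weaker (r = 0.367 to 0.851), so the order of levels among them is approximate. The median of the 43 solvent means was 0.479, against 0.0412 for all tested genes, and the lowest of them stood at the 66.5th percentile of all tested genes. Helicase genes held the first 4 places. Mcm3 had 0.79 and 1.77 in the solvent libraries, Mcm6 had 0.74 and 1.52, Mcm4 had 0.598 and 1.42, and Mcm5 had 0.661 and 1.13. These 4 ranges overlap, so their order does not hold beyond the spread between replicates. The lowest levels were those of Gins3, a GINS subunit, at 0.144 and 0.0805, and Cdc6 at 0.187 and 0.196. By the mean of the MS-275 libraries the first 3 places went to Rpa1, Rpa3 and Gins4, and Mcm2 moved from place 6 to 24 and Mcm5 from place 4 to 20. That order rests on replicate 2 (Rpa3 had 0.289 and 1.42), and in MS-275 replicate 1 the first was Mcm3 at 0.663, just above Rpa1 at 0.654.

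**Figure D1:**
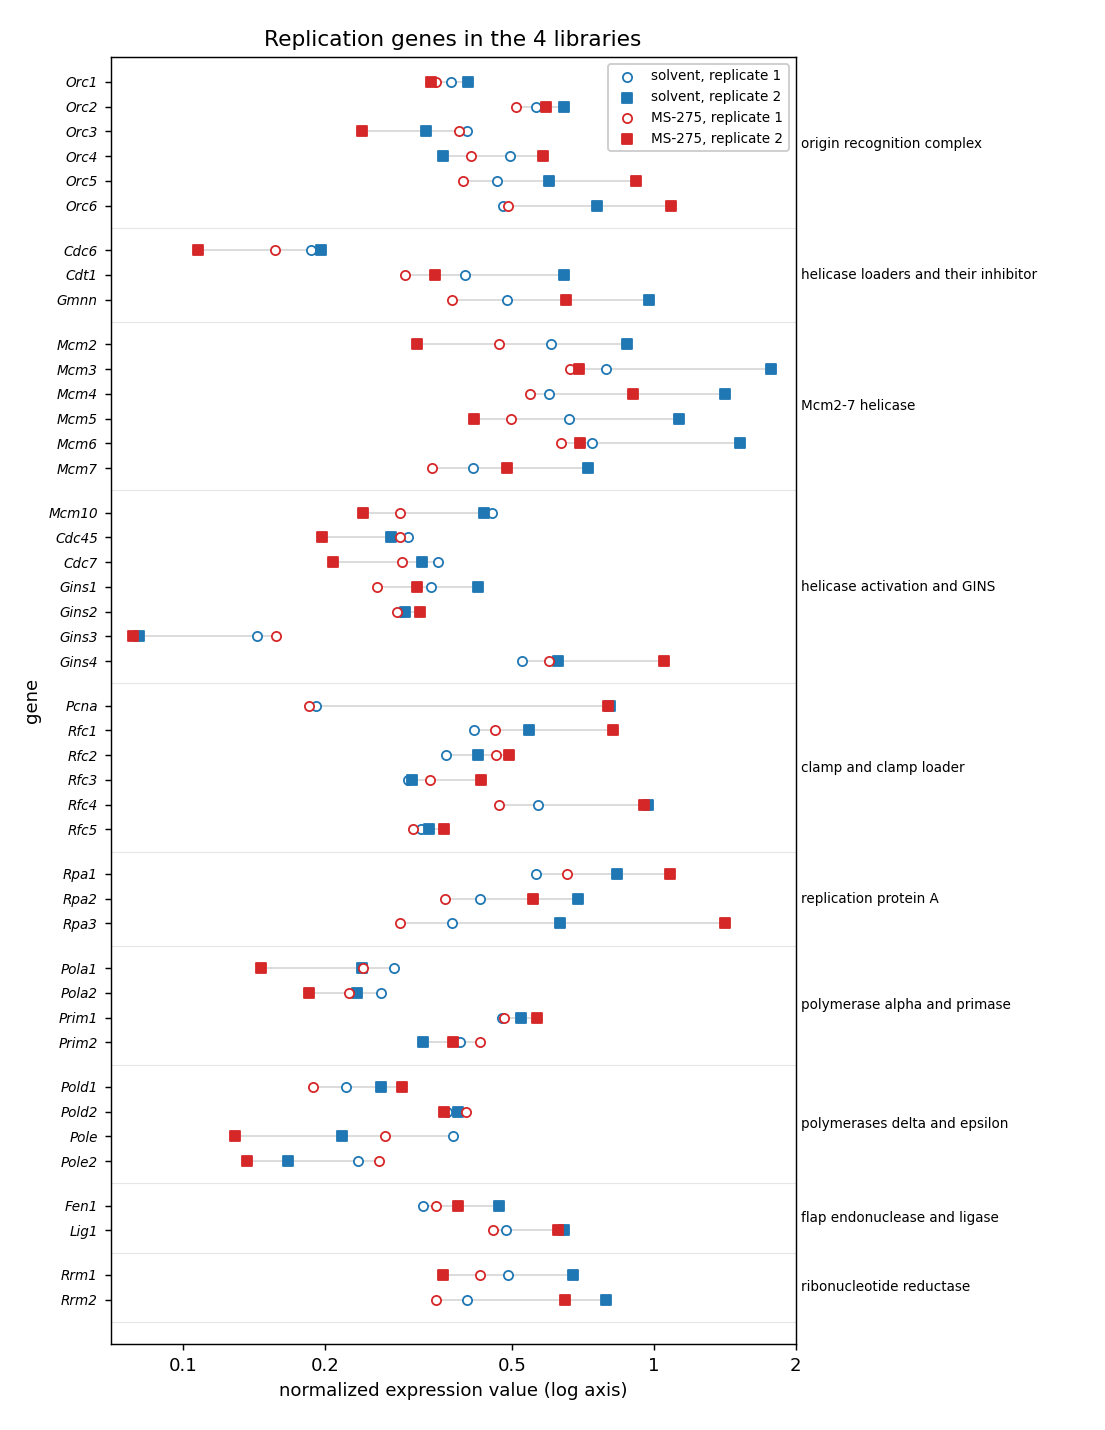
Normalized expression value of each of the 43 replication genes (rows, grouped by role) on a log axis in the 4 libraries, with open circles for replicate 1, filled squares for replicate 2, blue for solvent and red for MS-275. Mcm3 in solvent replicate 2 is the highest point at 1.77, and for Mcm2, Mcm3, Mcm5 and Mcm6 both MS-275 points lie to the left of both solvent points.

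All 6 helicase genes and all 3 genes of the loaders and their inhibitor had lower values after MS-275 in both pairs, and of these Mcm2 and Mcm5 passed in the paired fit and none without the block. Medians of the origin recognition complex (0.03), the clamp and its loader (0.15) and replication protein A (0.30) were above 0 on the authors' scaling, but were -0.26, -0.13 and 0.01 under median-ratio scaling, where that of the helicase was -1.02. The median log2 fold change of the 43 genes was -0.15, and on the same authors' scaling it was 0.20 over all tested genes. Scaling the libraries by median ratios moved the median of all genes to -0.01 and that of the 43 to -0.44. By pair, the median of the 43 was -0.20 in replicate 1 and -0.28 in replicate 2, and both pairs were lower for 25 of the 43 (58.1%), against 26.5% of all tested genes. Another 8 were higher in both pairs (18.6%, against 50.0% of all tested genes), and 10 moved in opposite directions.

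Without the block, limma called 0 of the 43 genes, and 1 of 20336 genes overall (0.00492% higher and 0.0% lower). Unadjusted p-values under 0.05 were given to 0 of the 43 genes, and overall to 2974 that were higher and 564 that were lower. In the paired fit 3 of the 43 were lower (Mcm2, Mcm5 and Mcm10) and 0 were higher, against 6.46% of all tested genes lower and 21.0% higher. The share of the 43 called lower was 6.98%, near the share of all genes. With quantile normalization added to the block, 9 of the 43 were lower and 1 higher (14.6% and 14.4% of all tested genes), and with median-ratio scaling 14 were lower and 0 higher (14.1% and 16.6%). Counting read positions in the alignments called more of them, as described below. Standard errors of the log2 fold changes of the 43 ran from 0.38 to 0.80 without the block and from 0.22 to 0.33 with it.

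Values of the groups did not overlap for 14 of the 43 genes. The 12 that were lower in both MS-275 libraries than in either solvent library were Orc1, Cdc6, Cdt1, Mcm2, Mcm3, Mcm5, Mcm6, Mcm10, Cdc7, Gins1, Pola2 and Rrm1, a share of 27.9% against 12.0% of all tested genes. Only Rfc2 and Rfc3 were higher in both MS-275 libraries than in either solvent library, a pattern that 32.3% of all tested genes had. At least 1.5-fold lower in both pairs was Mcm10 alone (4.84% of all listed genes were), and 1.2-fold lower in both were 8 genes, Cdt1, Gmnn, Mcm2, Mcm5, Mcm7, Mcm10, Gins1 and Pole (10.6% of all listed genes). None of the 43 was 1.5-fold or 1.2-fold higher in both pairs, where 17.9% and 25.6% of all listed genes were. The change was larger in replicate 2 for 35 of the 43 genes, with a median size of 0.48 on the log2 scale against 0.22 in replicate 1. Of all 20336 tested genes it was larger in replicate 2 for 12243, with median sizes of 0.49 and 0.38.

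**Figure D2:**
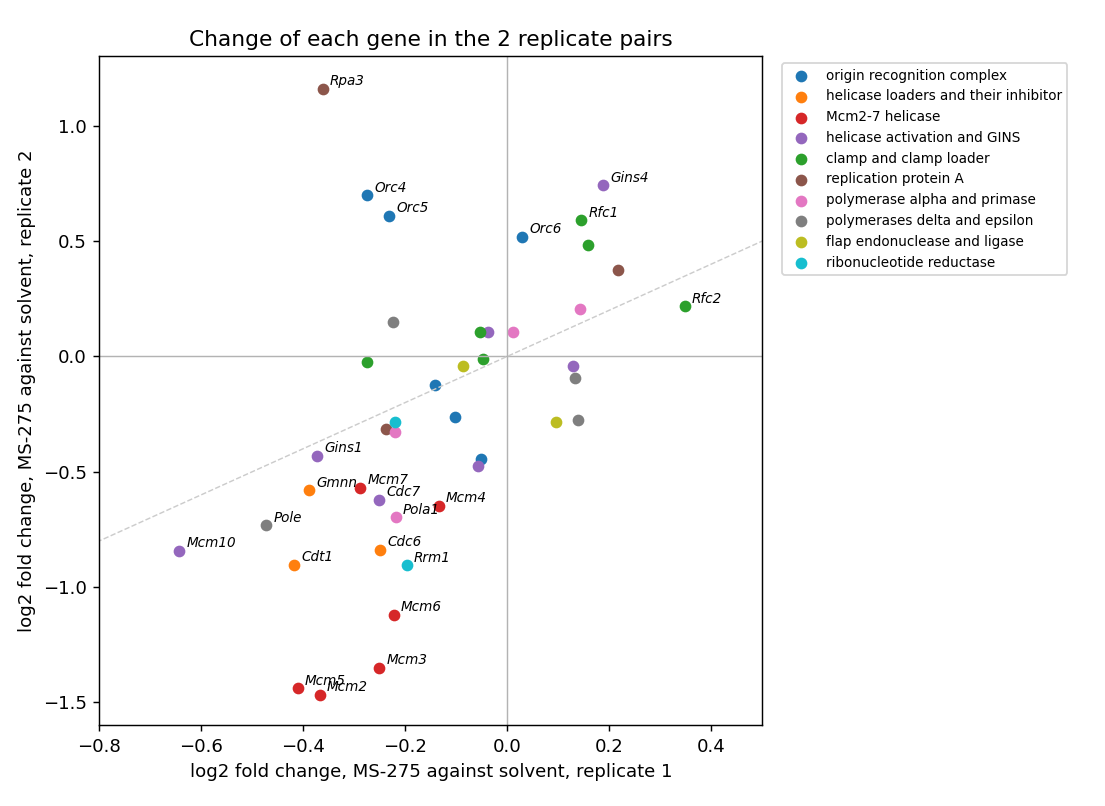
Log2 fold change of MS-275 against solvent in replicate 1 (horizontal) and replicate 2 (vertical) for each of the 43 genes, coloured by role, with a dashed line where both changes are equal. Mcm2 and Mcm5 lie lowest at -1.47 and -1.44 in replicate 2, and Rpa3 stands apart at -0.36 and 1.16.

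All 6 genes of the Mcm2-7 helicase, the ring that unwinds DNA, were lower in both pairs, with a median log2 fold change of -0.74 (-0.27 in replicate 1 and -1.23 in replicate 2). Mcm5 (Entrez 17218, mm9 chr8:77633427-77652338, plus strand) had values of 0.661 and 1.13 in solvent and 0.496 and 0.414 in MS-275. Mcm2 (Entrez 17216, mm9 chr6:88833469-88848774, minus strand) had 0.605 and 0.875 in solvent and 0.468 and 0.313 in MS-275. Both MS-275 values of each gene lay below both solvent values, and the gap was wider in replicate 2. The log2 fold change was -0.93 for Mcm5 (SE 0.58, adjusted p = 0.491; paired fit SE 0.29, adjusted p = 0.0281, limma). For Mcm2 it was -0.92 (SE 0.53, adjusted p = 0.441; paired fit SE 0.29, adjusted p = 0.0263, limma).

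The other helicase subunits did not pass either fit of the values. Mcm3 changed by -0.25 in replicate 1 and -1.35 in replicate 2 (paired adjusted p = 0.0808, limma), and Mcm6 by -0.22 and -1.12. Mcm4 had 0.598 and 1.42 in solvent and 0.545 and 0.902 in MS-275, and Mcm7 had 0.412 and 0.724 in solvent and 0.337 and 0.486 in MS-275. The groups of both genes overlapped, with changes of -0.13 and -0.65 for Mcm4 and -0.29 and -0.57 for Mcm7. Without solvent replicate 2 the change of Mcm4 was 0.23 in place of -0.39, and the other 5 subunits stayed below 0 with any library left out. The summed value of the 6 subunits was 3.81 and 7.44 in solvent and 3.14 and 3.50 in MS-275. Within each library the highest of the 6 was 1.92 and 2.44 times the lowest in solvent, and 1.97 and 2.88 times in MS-275.

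The genes that place the ring, and their inhibitor, had lower values in both pairs but did not pass either fit of the values. Cdt1, which brings the ring to the origin, had 0.397 and 0.644 in solvent and 0.296 and 0.342 in MS-275, with no overlap between groups. Its log2 fold change was -0.66 (SE 0.46, adjusted p = 0.562; paired adjusted p = 0.0546, limma). Cdc6, the ATPase that works with Cdt1, had 0.187 and 0.196 in solvent and 0.156 and 0.108 in MS-275, again without overlap (log2 fold change -0.54, paired adjusted p = 0.0906, limma). Gmnn, the inhibitor of Cdt1, had 0.488 and 0.975 in solvent and 0.371 and 0.65 in MS-275, where the solvent value of replicate 1 lay below the MS-275 value of replicate 2. The ratio of Cdt1 to Gmnn was 0.813 and 0.661 in solvent and 0.796 and 0.526 in MS-275.

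The origin recognition complex, which marks origins through the cycle, was mixed. Its median log2 fold change was 0.03, with 3 genes lower in both pairs, 1 higher in both and 2 split. Orc3 had 0.4 and 0.328 in solvent and 0.386 and 0.24 in MS-275 (log2 fold change -0.25, SE 0.44). Orc1, the only subunit whose groups did not overlap, had 0.371 and 0.403 in solvent and 0.345 and 0.336 in MS-275 (-0.18, SE 0.42). Orc6 had 0.479 and 0.756 in solvent and 0.489 and 1.09 in MS-275, a log2 fold change of 0.27 (SE 0.64) that turned to -0.01 under median-ratio scaling. Orc4 had 0.495 and 0.357 in solvent and 0.408 and 0.582 in MS-275, so that its pairs disagreed (-0.28 and 0.70). None of the 6 genes passed either fit of the values.

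Among the factors that activate the helicase, only Mcm10 passed in the paired fit of the values. Mcm10 (Entrez 70024, mm9 chr2:4910760-4933837, minus strand), which helps the ring to open and start, had 0.454 and 0.436 in solvent and 0.289 and 0.241 in MS-275. The groups stood well apart and replicates of a group lay close together. Its log2 fold change was -0.74 (SE 0.41, adjusted p = 0.423; paired fit SE 0.23, adjusted p = 0.0253, limma), with -0.64 in replicate 1 and -0.84 in replicate 2. Cdc7, the kinase that triggers the ring, had 0.348 and 0.322 in solvent and 0.292 and 0.207 in MS-275 (-0.44, paired adjusted p = 0.17, limma). The GINS subunits, which clamp the ring to Cdc45, did not move together. Gins1 was lower in both pairs (-0.37 and -0.43), and Gins2 was nearly level (-0.04 and 0.11). Gins4 had 0.525 and 0.626 in solvent and 0.598 and 1.05 in MS-275 (0.46, paired adjusted p = 0.233, limma), and Gins3 had 0.144 and 0.0805 in solvent and 0.158 and 0.0781 in MS-275, where replicates differed more than groups. Cdc45 changed by -0.06 and -0.48.

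The clamp and its loader had a median log2 fold change of 0.15. Rfc1, the large subunit of the loader, had 0.415 and 0.543 in solvent and 0.46 and 0.82 in MS-275 (0.37, SE 0.54). Rfc3, a small subunit, had 0.299 and 0.306 in solvent and 0.335 and 0.429 in MS-275, without overlap (0.32, SE 0.42). Rfc4 had 0.568 and 0.97 in solvent and 0.468 and 0.952 in MS-275, and Rfc2 and Rfc5 changed by 0.28 and 0.03. None of these passed a fit of the values, and the sign of Rfc1 and Rfc3 turned when alignments were counted. Pcna, the clamp, had 0.191 and 0.807 in solvent and 0.185 and 0.8 in MS-275, so that replicates differed by far more than groups. Processed copies of Pcna exist elsewhere in the mouse genome, and how the authors' counting divided reads among them is not given in the sources used here.

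Replication protein A, the trimer that coats single-stranded DNA, had 1 subunit lower in both pairs, 1 higher in both and 1 split. Rpa1 had 0.563 and 0.833 in solvent and 0.654 and 1.08 in MS-275 (0.30, SE 0.65). Rpa2 had 0.426 and 0.688 in solvent and 0.36 and 0.552 in MS-275 (-0.28, SE 0.52). Rpa3, the smallest subunit, had 0.373 and 0.632 in solvent and 0.289 and 1.42 in MS-275. Its highest value came from MS-275 replicate 2 alone, and without that library its log2 fold change was -0.74 instead of 0.40.

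The genes of polymerase alpha had lower values in both pairs, and those of primase did not, but none of the 4 passed either fit of the values. Pola1, the catalytic subunit, had 0.281 and 0.24 in solvent and 0.24 and 0.146 in MS-275 (-0.46, paired adjusted p = 0.145, limma). Pola2, its regulatory subunit, had 0.263 and 0.233 in solvent and 0.225 and 0.185 in MS-275, without overlap (-0.28, paired adjusted p = 0.377, limma). Prim2 had 0.386 and 0.323 in solvent and 0.427 and 0.373 in MS-275, and Prim1 had 0.476 and 0.522 in solvent and 0.48 and 0.563 in MS-275, with log2 fold changes of 0.17 and 0.06 that both turned negative under median-ratio scaling (-0.11 and -0.23).

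Of the replicative polymerases, Pole changed most. Pole, the catalytic subunit of polymerase epsilon on the leading strand, had 0.374 and 0.217 in solvent and 0.268 and 0.129 in MS-275. It was lower in both pairs (-0.47 and -0.73), although the groups overlapped because replicate 2 was lower in each group (log2 fold change -0.60, paired fit SE 0.22, adjusted p = 0.0536, limma). Pole2, its second subunit, had 0.235 and 0.167 in solvent and 0.26 and 0.136 in MS-275. The polymerase delta genes Pold1 (-0.04) and Pold2 (0.02) were close to level in the values on the authors' scaling. Under median-ratio scaling the 4 genes of polymerases delta and epsilon changed by -0.89 to -0.27. Pold1 had 0.221 and 0.263 in solvent and 0.189 and 0.292 in MS-275, and Pold2 had 0.363 and 0.383 in solvent and 0.398 and 0.358 in MS-275.

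The enzymes that finish Okazaki fragments were close to level in the values on the authors' scaling (-0.09 to -0.07). Under median-ratio scaling they changed by -0.38 to -0.35. Fen1, the flap endonuclease, had 0.323 and 0.468 in solvent and 0.345 and 0.384 in MS-275, and Lig1, the ligase, had 0.484 and 0.643 in solvent and 0.455 and 0.624 in MS-275. Ribonucleotide reductase, which makes the deoxynucleotides, was lower in both subunits and both pairs. Rrm1 had 0.49 and 0.672 in solvent and 0.426 and 0.356 in MS-275, without overlap (-0.55, paired adjusted p = 0.128, limma), and Rrm2 had 0.402 and 0.79 in solvent and 0.344 and 0.647 in MS-275 (-0.25).

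Shares within a library do not depend on how libraries are scaled. The Mcm2-7 helicase made up 21.3% and 29.4% of the summed values of the 43 genes in solvent and 19.3% and 16.0% in MS-275. Loaders and inhibitor made up 6.0% and 7.19% in solvent and 5.07% and 5.03% in MS-275. The clamp and its loader went the other way, with 12.1% and 13.4% in solvent and 13.7% and 17.6% in MS-275. The ratio of the summed helicase values to those of the origin recognition complex was 1.37 and 2.41 in solvent and 1.24 and 0.934 in MS-275. In each of these measures the MS-275 libraries lay outside the solvent range. For the helicase and the clamp loader the margin was small in replicate 1 and wide in replicate 2. Shares of the origin recognition complex and of the flap endonuclease and ligase were also above that range, and ribonucleotide reductase below. Both MS-275 libraries lay within it for helicase activation and GINS. A single MS-275 library did for replication protein A, polymerase alpha and primase, and polymerases delta and epsilon. Shares add up to a fixed total, so a higher share need not mean a higher level.

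The deposited alignments gave a separate reading of the same libraries. In those deposited with replicate 1, 53.2% and 54.4% of alignments (solvent and MS-275) repeated a position and strand already occupied, and in those deposited with replicate 2 none did. The values of replicate 1 followed the alignments deposited with replicate 2 more closely (r = 0.936 between the log2 fold changes of the 43 genes, and 0.952 across 13015 genes) than all of those deposited with replicate 1 (r = 0.646 and 0.830). The values of replicate 2 followed the alignments deposited with replicate 1 (r = 0.914 and 0.940, against 0.497 and 0.768). Levels across 13013 genes did the same in each group, with r of 0.928 to 0.948 for the other number and 0.837 to 0.903 for the same number. Levels of the 43 genes did so in replicate 2 (0.851 in solvent and 0.815 in MS-275 for the other number, 0.553 and 0.367 for the same), but not in replicate 1 (0.651 and 0.621 for the other number, 0.712 and 0.658 for the same). The name OLD also goes with the values of replicate 1 but with the alignments deposited with replicate 2. Whether the replicate numbers of values and alignments were exchanged was not tested further. An exchange in both groups would leave the groups and the pairs as they are. These correlations share libraries and depth and are given as a description.

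When every position and strand was counted once over exons, limma called 10 of the 43 genes lower without the block and 0 higher (9.7% of 14941 tested genes were lower and 13.7% higher). Those that fell were Cdc6, Cdt1, all 6 subunits from Mcm2 to Mcm7, Mcm10 and Cdc7. With the block 22 of the 43 fell and 0 rose (22.4% of all tested genes fell and 24.7% rose). Beside the 10, these were Orc3, Orc5, Gmnn, Gins1, Rpa2, Pola1, Pola2, Pold1, Pole, Lig1, Rrm1 and Rrm2. Pold1 and Lig1, close to level in the values on the authors' scaling only, fell by 0.50 and 0.33 here. The block with repeats kept gave 20 that fell and 0 that rose (19.0% and 20.1% of all). The median log2 fold change of the 43 was -0.35 over distinct positions, against -0.01 for all tested genes. In these fits of exon positions 0 of the 43 genes were higher even at an unadjusted p under 0.05. For all tested genes only the shares higher at the adjusted threshold are given (13.7% to 24.7%).

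Mcm10 had the largest fall over distinct exon positions, with 1550 and 1650 positions in solvent and 613 and 1152 in MS-275. Its log2 fold change was -1.01 (SE 0.13, adjusted p = 1.82e-05 paired and 0.0126 without the block, limma). Cdt1 had 829 and 610 positions in solvent and 360 and 515 in MS-275, a change of -0.82 (SE 0.15, adjusted p = 0.000502 paired and 0.0228 without the block, limma). Pole fell by 0.80 (adjusted p = 0.000222 paired, limma), though it was not called without the block (adjusted p = 0.0748). The clamp and its loader had no gene called and a median of -0.16, and the highest change among the 43 was that of Rfc2 at 0.10. Fen1 and Gins2 overlap other genes, leaving only 15.8% and 32.7% of their exon bases countable.

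In the same alignments, counting a position once gave smaller changes for the helicase genes. Of the possible exon positions of the 6 helicase genes, 14.3% to 40.7% were occupied in solvent replicate 1 and 7.83% to 20.9% in MS-275 replicate 1. Each occupied position held 3.38 to 4.88 alignments on average in the first and 2.09 to 3.14 in the second. In the alignments deposited with replicate 1, the log2 ratio of Mcm2 was -1.63 with repeats and -0.89 without them, that of Mcm5 was -1.62 and -0.84, and that of Mcm3 was -1.55 and -0.80. The direction was the same in both readings, and the size differed by more than 1.5 times.

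**Figure D3:**
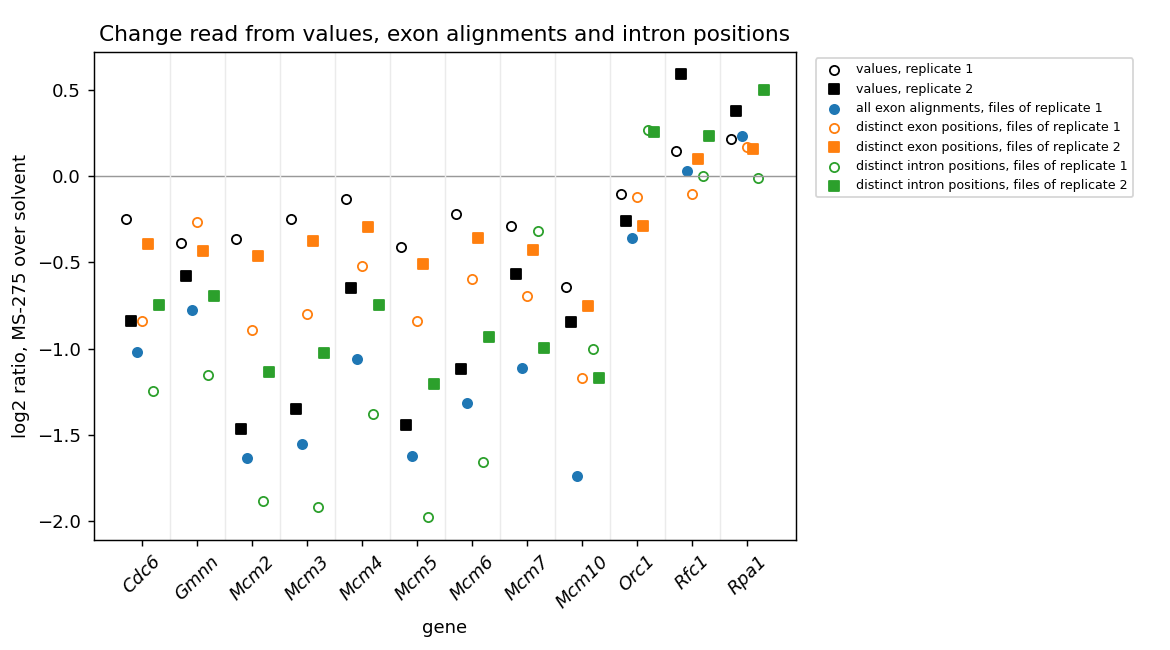
Log2 ratio of MS-275 over solvent for 12 genes (the helicase subunits, Cdc6, Gmnn and Mcm10, with Orc1, Rfc1 and Rpa1 for contrast) in the values (black), all exon alignments (blue), distinct exon positions (orange) and distinct intron positions (green), circles for replicate 1 and squares for replicate 2 as deposited. For Mcm2 the ratios run from -0.37 in the values of replicate 1 to -1.88 over introns, all below 0.

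Introns of the same genes were read as well, since their reads come from unspliced RNA or from DNA. Of the 43 genes, 41 had introns that could be counted (not Cdt1 and Gins2). Without the block 6 fell and 0 rose, namely Mcm2, Mcm3, Mcm5, Mcm6, Mcm10 and Gins1 (5.03% of 12863 tested genes fell and 7.56% rose). With the block 21 fell and 0 rose (21.0% and 20.6% of all). The median log2 fold change over introns was -0.58 for the 41 genes and -0.03 for all tested genes. With 1 library left out, the median of the 41 genes ran from -0.57 (without solvent replicate 1) to -0.36 (without MS-275 replicate 1). That of all tested genes ran from -0.02 to 0.0002. The number called without the block changed with the library left out.

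Mcm5 had 1368 and 660 intron positions in solvent and 304 and 325 in MS-275, both well below either solvent library. Its log2 fold change was -1.72 (SE 0.19, adjusted p = 5.46e-06 paired and 0.0129 without the block, limma). Mcm2 had 237 and 101 positions in solvent and 56 and 52 in MS-275 (-1.65, SE 0.27, adjusted p = 0.000199 paired and 0.0336 without the block, limma). All 6 helicase subunits passed in the paired fit, with a median of -1.50. Gins1 fell by 1.15 over introns (896 and 470 positions in solvent, 332 and 303 in MS-275), and Pola2 by 0.99 in the paired fit alone. Pcna, Rfc3 and Fen1, which no fit of values or exon positions called, also passed over introns in the paired fit (-0.73, -0.82 and -0.89). Rfc1, with 362 and 303 positions in solvent and 317 and 404 in MS-275, changed by 0.01 (SE 0.19). The log2 fold change over introns was below that over exons for 29 of the 41 genes (70.7%), whatever its sign. The same held for 52.9% of 12155 genes measured in both. Counting each exon position once gave smaller changes for the helicase genes, as described above.

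**Figure D4:**
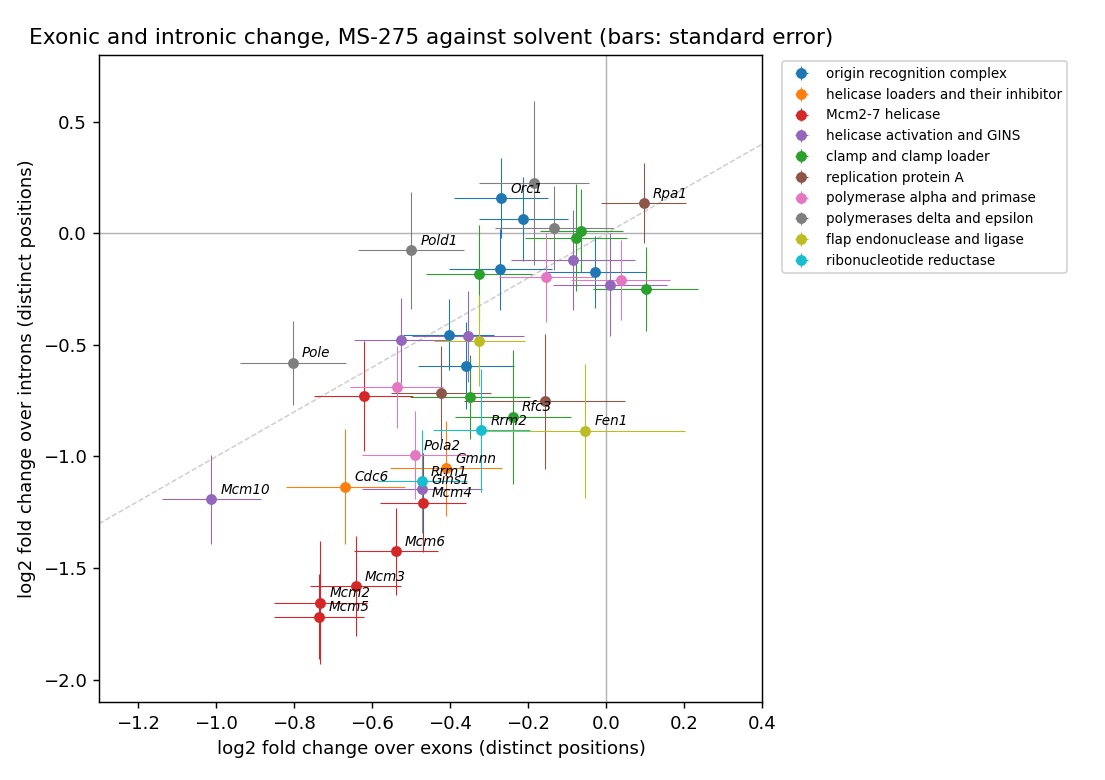
Log2 fold change over distinct exon positions (horizontal) and distinct intron positions (vertical) from the paired fit for 41 genes, coloured by role, with standard errors as bars and a dashed line where both are equal. Mcm2 and Mcm5 lie lowest at -1.65 and -1.72 over introns, with Mcm10 furthest left at -1.01 over exons.

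Promoters were examined because E2F factors bind upstream of many replication genes. Windows of 300 bases, 250 before and 50 after the RefSeq start (GRCm38.p6), were given for 35 of the 43 genes. The letters TTTCCCGC, TTTCGCGC, TTTGCCGC or TTTGGCGC, on either strand, were in the windows of 14 of the 35 genes (40.0%), against 2.60% of 27025 genes. The CCAAT box, the site of the factor NF-Y, was in 23 of the 35 (65.7%), against 41.1% of all genes. The stretches below belong to genes with an E2F-type sequence and the largest negative (Mcm5, Mcm3) and positive (Rfc3, Gins3) changes of the values, and to Mcm2, the most changed gene without one. Capitals mark the E2F-type letters, which overlap in Mcm5.
Mcm5 (chr8:75109259-75109508, plus strand, the 250 bases before the start): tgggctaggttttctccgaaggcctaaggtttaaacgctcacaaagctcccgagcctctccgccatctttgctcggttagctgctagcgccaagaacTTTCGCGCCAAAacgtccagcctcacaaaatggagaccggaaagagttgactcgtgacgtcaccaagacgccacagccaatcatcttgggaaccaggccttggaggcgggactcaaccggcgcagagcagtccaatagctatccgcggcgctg
Mcm3 (chr1:20820266-20820295, minus strand, 30 bases that hold both matches): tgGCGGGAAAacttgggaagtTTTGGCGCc
Rfc3 (chr5:151651195-151651224, minus strand, 30 bases that hold both matches): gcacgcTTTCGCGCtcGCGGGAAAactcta
Gins3 (chr8:95633309-95633558, plus strand, the 250 bases before the start): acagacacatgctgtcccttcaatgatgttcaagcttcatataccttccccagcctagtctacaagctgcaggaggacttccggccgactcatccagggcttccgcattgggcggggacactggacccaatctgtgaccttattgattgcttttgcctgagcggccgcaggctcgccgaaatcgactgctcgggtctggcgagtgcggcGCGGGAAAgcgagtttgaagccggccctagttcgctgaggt
Mcm2 (chr6:88898781-88899030, minus strand, the 250 bases before the start): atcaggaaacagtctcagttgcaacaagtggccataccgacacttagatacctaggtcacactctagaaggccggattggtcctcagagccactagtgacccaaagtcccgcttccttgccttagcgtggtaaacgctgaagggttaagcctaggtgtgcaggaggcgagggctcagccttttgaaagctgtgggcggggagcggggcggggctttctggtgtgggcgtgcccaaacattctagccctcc
Among the 14 genes with an E2F-type sequence (Orc1, Orc3, Cdc6, Cdt1, Mcm3, Mcm5, Mcm6, Mcm7, Gins3, Rfc3, Pola1, Pold1, Pole2 and Lig1) the median log2 fold change of the values was -0.34, and 12 of the 14 were below 0. Among the 21 without one it was -0.09, and 12 of the 21 were below 0. Both sets spanned nearly the same range, from -0.93 to 0.32 with the sequence and from -0.92 to 0.40 without it. In the paired fit of distinct positions 10 of the 14 and 8 of the 21 fell (22.4% of all tested genes). Rfc3 and Gins3 carried the letters and were not lower in the values on the authors' scaling, though Gins3 was under median-ratio scaling (-0.23). Over distinct exon positions with the block Rfc3 changed by -0.24 and Gins3 by -0.086, and neither was called. Over introns with the block Rfc3 was called lower (-0.82, adjusted p = 0.0364, limma). Mcm2 and Mcm10 had none in this window and were among the most reduced. The Mcm10 window ends in TTTGGCG, which lacks only the last letter of a match, and the next base was not read. A match is letters only, and binding was not measured.

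**Figure D5:**
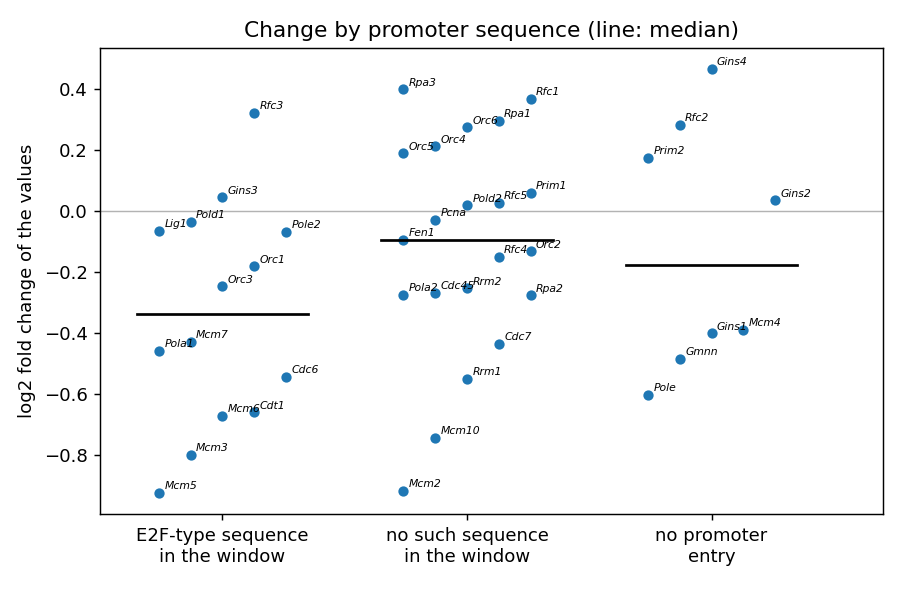
Log2 fold change of the values (vertical) of the 43 genes, split by whether the RefSeq promoter window holds an E2F-type sequence, with a black line at each median. The medians are -0.34 with the sequence and -0.09 without it, and Mcm5 and Mcm2 are the lowest of their columns.

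Other genes of DNA replication were read from lists of related factors. Of 12 firing and checkpoint genes listed, 4 fell in the paired fit and 0 rose (6.46% of all tested genes fell and 21.0% rose). Dbf4, the activator of Cdc7, had 0.647 and 1.17 in solvent and 0.492 and 0.489 in MS-275 (-0.82, paired SE 0.29, adjusted p = 0.0447, limma). Timeless, which steadies stalled forks, changed by -0.69, and Mtbp, a firing factor, and Atad5, which unloads the clamp, by -0.64 and -0.62. The largest positive changes in this list were those of Clspn (0.28) and Chtf18 (0.25), which did not pass. Of 11 further polymerase and maturation genes 1 fell and 0 rose in the paired fit. It was Rnaseh2b (-0.64, adjusted p = 0.0445, limma), a subunit of the enzyme that removes ribonucleotides. Top2a, the topoisomerase that untangles daughter strands, changed by -0.58 without passing in the values. Pold4 (0.27) and Rnaseh2c (0.24) changed most in the other direction. Over distinct positions with the block 7 of the 12 firing and checkpoint genes fell and 0 rose (22.4% and 24.7% of all). Of the 11 polymerase and maturation genes 5 fell there and 0 rose, and Top2a was among them (-0.43, adjusted p = 0.00137, limma).

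Nucleotide supply showed 0 of 10 genes called in the paired fit of the values (6.46% of all tested genes fell and 21.0% rose). Over distinct positions with the block 7 of 10 were lower and 0 higher (22.4% and 24.7% of all). In the values Shmt1 and Tk1 changed most downward (-0.62 and -0.47) and Gart and Dut most upward (0.17 and 0.10). Over distinct positions Gart was among those lower (-0.34, adjusted p = 0.0211, limma with the block), and Dut changed by -0.10 without passing. Of 4 relatives of the helicase and reductase 1 rose and 0 fell in the paired fit of the values (21.0% and 6.46% of all). Rrm2b, the reductase subunit induced by p53, rose by 0.80 (0.0507 and 0.0278 in solvent, 0.0781 and 0.0617 in MS-275, paired adjusted p = 0.0378, limma). In that fit Mcm9 (0.46) and Mcm8 (-0.39) did not pass. Over distinct positions with the block 2 rose, Rrm2b (0.60) and Mcm9 (0.51, adjusted p = 0.0245, limma). There 1 fell, Mcm8 (-0.61, adjusted p = 0.00219, limma), against 24.7% higher and 22.4% lower of all. Of 9 genes of replication-coupled chromatin 1 rose and 0 fell in the paired fit of the values (21.0% and 6.46% of all tested genes). The 1 that rose was the histone chaperone Asf1b (0.74, paired adjusted p = 0.0369, limma). Nasp (-0.68) and Asf1a (-0.53), which also carry histones, and Chaf1a (0.21) did not pass in the values. Over distinct positions with the block 4 of the 9 fell and 1, Asf1b, rose (22.4% and 24.7% of all). Nasp (-0.54, adjusted p = 0.000397, limma) and Asf1a (-0.71, adjusted p = 0.00134, limma) were among those that fell.

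Among 18 E2F and pocket protein genes, 2 rose and 3 fell in the paired fit (21.0% and 6.46% of all tested genes), and over distinct positions with the block 1 rose and 8 fell (24.7% and 22.4%). Rb1, the retinoblastoma protein that restrains E2F factors, had 0.195 and 0.103 in solvent and 0.315 and 0.272 in MS-275, so that both MS-275 values exceeded both solvent values. It rose by 1.02 (SE 0.23, paired adjusted p = 0.00434, limma). Mybl2, a partner of the complex that drives late cell cycle genes, had 0.649 and 1.08 in solvent and 0.455 and 0.202 in MS-275, and fell by 1.45 (SE 0.34, paired adjusted p = 0.00529, limma). E2f2 rose by 0.95 (paired adjusted p = 0.0393, limma), nearly all of it in replicate 2 (0.13 and 1.78), and did not pass over distinct positions (0.55, adjusted p = 0.0516, limma with the block). Lin52 and Lin9, members of the same complex as Mybl2, fell by 0.75 and 0.64. In the values none of the genes of these 6 lists passed without the block (0.00492% of all tested genes did). Over distinct positions without the block 16 of their 64 genes fell and 0 rose (9.7% and 13.7% of all).

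Markers of other cell types and of the cell cycle moved beside the replication genes. Of 10 ESC markers 4 fell in the paired fit and 0 rose (6.46% and 21.0% of all tested genes), and 7 fell over distinct positions with the block (22.4%). Fgf4 (-1.56) and Utf1 (-1.45) changed most. The summed value of the 10 was 6.08 and 23.2 in solvent and 4.83 and 13.6 in MS-275, with none at 0. Of 10 fibroblast markers 6 rose and 0 fell in the paired fit (21.0% and 6.46% of all), and over distinct positions 5 rose and 2 fell (24.7% and 22.4%), with summed values of 0.379 and 0.337 in solvent and 0.724 and 0.82 in MS-275. Among them Col1a1 had 0.0146 and 0.0101 in solvent and 0.0681 and 0.11 in MS-275, and Pdgfrb, next in size, had 0.0218 and 0.0133 in solvent and 0.059 and 0.0355 in MS-275. Col3a1 (-0.52) and Dcn (-0.72) did not pass in the values and fell over distinct positions (-1.26 and -1.07, adjusted p = 0.0158 and 0.0413, limma with the block). Of 6 primitive endoderm markers 1 rose, Sox17 (1.33), and Dab2 (0.54) came next without passing. Of 5 mitosis markers listed, 0 passed in the paired fit and 4 fell over distinct positions with the block (22.4% of all). Ccnb1 (-0.66) and Mki67 (-0.65) had the lowest changes of the values and Cdk1 (0.27) the highest. Summed values were 2.56 and 4.94 in solvent and 2.19 and 4.23 in MS-275. In bulk RNA fewer cycling cells and less RNA per cell cannot be told apart, and the part that these markers have in the fall of the replication genes was not tested.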

How the data were processed

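RNA of 2 solvent and 2 MS-275 libraries was sequenced as 36-base reads and aligned to mm9. The authors deposited a normalized expression signal for each of 28250 genes and 35-base alignments without read counts, and the aligner's version is not given in the sources used here. The tables also hold the authors' own fold changes, which were not used. The 43 genes, their role groups and the other gene lists were chosen with earlier results of these data known.

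Values were taken as log2(value + 0.005), which understates changes of low genes, for genes at 0.001 or more in at least 2 libraries, and tested two-sided with limma 3.58.1 (lmFit, eBayes with a trend, R 4.3.3) without a block. P-values were adjusted by Benjamini and Hochberg over all genes tested, with 0.05 as threshold. The paired fit had the replicate number as a block, because the authors' headers mark the values of replicate 1 of both groups as OLD. All 22 chromosomes fitted mm9 lengths. Alignments were counted by midpoint on GENCODE M1 exons or introns, leaving out bases shared by genes, and were fitted by limma voom for genes with 10 or more in at least 2 libraries. Log2 ratios within a pair were taken after adding 0.5 and centred on the median gene. Values matched the annotation for 22254 of 28250 genes. Introns and ratios within pairs of alignments were added after the data were seen. The main fit of the values and the fit of distinct exon positions, each with and without the block, were tried on simulated data. The fits of introns, of all alignments and of the other settings were not. Values in every library are given for the 2 highest and the 2 lowest log2 fold changes of each role group and for the 5 with the smallest p in the paired fit. Of each other list the 2 most changed in each direction are named. Printed promoters follow the rule given with them. Other pseudocounts, filters and scalings, and leaving out each library, were tried as alternatives. No read depth comes with the values, so no counting interval is given.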

Additional observations from a re-analysis of the deposited data

How the results depend on the processing

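None of the 43 genes was called without the block under any pseudocount, filter, scaling or left-out library tried on the values. Between 0 and 160 genes of all were called higher and 0 to 29 lower when a library was left out, and the median of the 43 ran from -0.24 to 0.011. A mean value of at least 0.01 gave 466 genes higher and 65 lower, and each of the other settings without the block that kept every library gave 0 higher. With a library left out, the lone library of its group is assumed to vary like the other group.

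With the replicate block, 3 of the 43 and 1314 of all genes were lower and 4277 of all were higher. Pairing gave 3 members lower also with a pseudocount of 0.001 (all genes 4216 higher, 1220 lower) or 0.02 (3790, 1158), and 4 with GC and length trends removed, which covered 85.6% of genes (3743, 1116). With quantile normalization 9 members were lower and 1, Gins4, higher (2936, 2961), and with median-ratio scaling 14 were lower (3379, 2864) with a median of -0.44, as without the block. Distinct positions gave 10 members lower without the block (2042, 1449, median -0.35) and 22 with it (3685, 3349, median -0.35), and all alignments 20 (3041, 2876, median -0.51). Mcm2, Mcm5 and Mcm10 were called in all 8 paired fits, with adjusted p of at most 0.0411 (limma). Over introns 6 members were lower without the block and 21 with it (5.03% and 21.0% of all tested genes). The number changed when a library was left out. At least 1.2-fold lower in both pairs were 8 members and 2.0-fold 0, and this count has no version with a library left out.

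The sign of 29 members held in all 16 settings that kept every library. Quantile normalization, with or without the block, turned Gins3 (-0.063) and Rfc5 (-0.0071). Median-ratio scaling, with or without the block, turned Orc4 (-0.074), Orc5 (-0.10), Orc6 (-0.013), Gins2 (-0.25), Gins3 (-0.23), Rfc2 (-0.0042), Rfc5 (-0.26), Prim1 (-0.23), Prim2 (-0.11) and Pold2 (-0.27). Removing GC and length trends turned Pcna (0.0043) and Pold2 (-0.13). Distinct positions, without and with the block, turned Orc4 (-0.26, -0.27), Orc5 (-0.35, -0.36), Orc6 (-0.037, -0.028), Gins2 (-0.15, -0.14), Gins3 (-0.081, -0.086), Rfc1 (-0.062, -0.065), Rfc3 (-0.24, -0.24), Rfc5 (-0.077, -0.079), Rpa3 (-0.20, -0.16), Prim1 (-0.15, -0.15) and Pold2 (-0.18, -0.19). All alignments turned Orc4 (-0.28), Orc5 (-0.54), Gins2 (-0.16), Gins3 (-0.19), Rfc1 (-0.064), Rfc3 (-0.17), Rfc5 (-0.088), Prim1 (-0.22), Prim2 (-0.034) and Pold2 (-0.33). Leaving out a library turned the sign of 23 members, whose log2 fold changes then ran as follows: Orc3 (-0.58 to 0.089), Orc4 (-0.042 to 0.47), Orc5 (-0.42 to 0.79), Orc6 (-0.30 to 0.85), Gmnn (-0.98 to 0.011), Mcm4 (-1.01 to 0.23), Cdc45 (-0.54 to 0.0011), Gins2 (-0.047 to 0.12), Gins3 (-0.44 to 0.53), Pcna (-1.07 to 1.01), Rfc1 (-0.047 to 0.78), Rfc4 (-0.66 to 0.36), Rfc5 (-0.082 to 0.13), Rpa1 (-0.065 to 0.66), Rpa2 (-0.62 to 0.065), Rpa3 (-0.74 to 1.54), Prim1 (-0.055 to 0.17), Pold1 (-0.35 to 0.27), Pold2 (-0.057 to 0.094), Pole2 (-0.52 to 0.38), Fen1 (-0.36 to 0.17), Lig1 (-0.29 to 0.16), Rrm2 (-0.74 to 0.23). The cause of these turns was not tested.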
